A study of Mus musculus with 9 samples.

Results

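Genes of intraflagellar transport and the primary cilium were followed in cultured mouse glia of 3 genotypes. The members were all probes whose platform gene symbol begins with Ift or Bbs and a digit, or is 1 of 31 listed names, which gave 46 of the 24613 probes on the array, for 33 genes. Of the 31 names, 23 had a probe under that symbol and 10 further genes entered by the Ift and Bbs rule. Kif3b, Arl6, Arl13b, Tctn1, Mks1, Dync2li1, Cep290 and Ift140 had no probe under their symbol in the annotation used here and were not analysed. Glia came from pups of postnatal days 1 to 3 and were grown to confluence, with 3 biological replicates and 3 arrays for each genotype. Nontransgenic pups (labelled B6SJL 2Gur/J) carried no transgene, SOD1-G93A pups (B6SJL-Tg(SOD1*G93A)2Gur/J) carried human superoxide dismutase 1 with the amyotrophic lateral sclerosis mutation, and SOD1-WT pups (B6SJL-Tg(SOD1)2Gur/J) carried normal human SOD1. The labels do not say how many pups made a culture or whether replicates came from separate litters, and p-values measure only the spread between these samples. The series set out to find genes behind the toxicity of mutant glia.

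The primary cilium is a single, usually immotile antenna on the cell surface that grows from a basal body, and astrocytes and other glia carry one. Its axoneme is built and kept by intraflagellar transport (IFT): kinesin-II carries trains of the IFT-B and IFT-A complexes to the tip and cytoplasmic dynein 2 brings them back. The BBSome, a coat of Bardet-Biedl syndrome proteins, moves membrane receptors through the cilium, and the transition zone at its base gates what enters. Hedgehog signalling in mammals passes through this organelle. Motile cilia, such as those of ependymal cells that line the ventricles, use the same transport machinery and add dynein arms and radial spokes.

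Of the 46 probes, 39 were kept for testing, for 28 genes, because their detection p was below 0.01 on at least 3 arrays. Of these 39, 38 were detected on all 9 arrays, the other being a dim probe of Bbs9 (detected on 2, 2 and 3 arrays of the nontransgenic, SOD1-G93A and SOD1-WT groups). The other 7 probes were below background on every array. They were the single probes of Dync2h1, the heavy chain of the retrograde motor, of the IFT-B genes Ift46 and Ift74, of Ofd1, a basal body gene, and of Tmem67, a transition zone receptor, and 1 probe each of Ift57 and Kifap3. Their genes apart from Ift57 and Kifap3 have no value here, which says nothing on whether they are expressed. Values are background-corrected, quantile-normalised log2 intensities, and they are compared only between groups for the same probe. A change is given as a log2 difference ± SE from 1 limma fit of all 9 arrays, with p adjusted over all 13972 kept probes and a threshold of 0.05.

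The arrays detected 53.3% to 55.3% of probes each. SOD1-WT replicate 3 stood apart in bead noise: over the member probes the median standard error of the beads was 8.83% of the signal, against 4.37% to 5.00% on the other 8 arrays. Mouse Sod1 averaged 10.94, 11.11 and 11.27 in nontransgenic, SOD1-G93A and SOD1-WT cultures. A mouse probe may not detect the human transgenes. The Y-linked gene Kdm5d read 6.94, 7.03 and 6.88 on the SOD1-WT arrays and was below background on the other 6, so sex of the pups and genotype cannot be told apart in comparisons with SOD1-WT glia. In these bulk samples a larger share of ciliated cells and more ciliary RNA per cell cannot be told apart either.

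Most transcripts of the cilium transport machinery were higher in glia carrying normal human SOD1 than in nontransgenic glia. In SOD1-WT against nontransgenic glia, 27 of 39 member probes were higher and 0 lower, while 25.3% of all kept probes passed in either direction, 13.5% of all kept probes higher and 11.8% lower. At an unadjusted p under 0.05 limma gave 29 higher and 0 lower members. By gene, with the probe of highest mean signal, 20 of 28 were higher and 0 lower, against 14.0% and 13.0% of all 9842 genes. The median log2 change of the member probes was 0.46, with quartiles of 0.27 and 0.70, against 0.00 over all kept probes, and 38 of 39 were above 0 against 50.5% of all. In 30 of the 39 every SOD1-WT array lay above every nontransgenic array, which 19.7% of all kept probes also showed. Without SOD1-WT replicate 3, the noisy array, 29 member probes were higher.

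**Figure D1:**
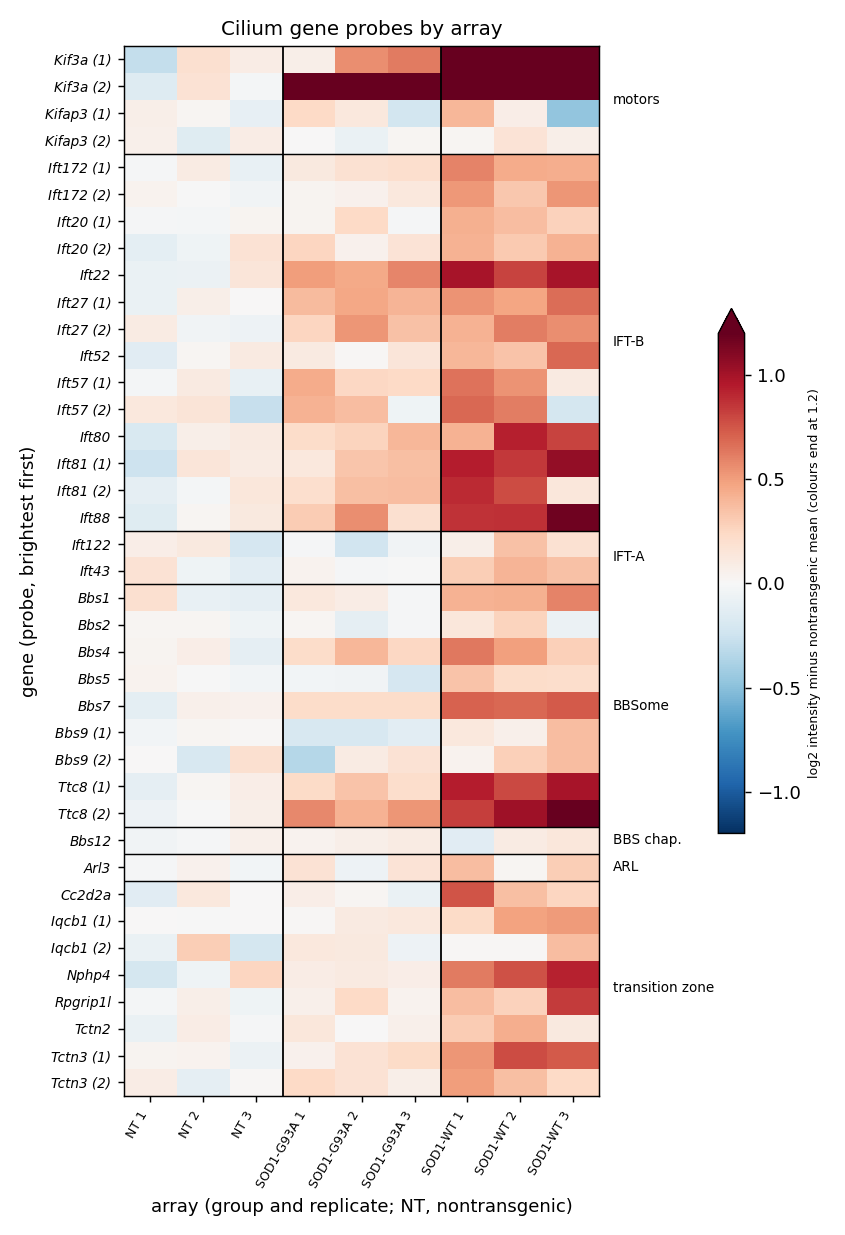
Log2 intensity of the 39 kept member probes (rows, grouped by role) on each of the 9 arrays (columns), as the difference from the nontransgenic mean of the same probe. Most rows darken from nontransgenic through SOD1-G93A to SOD1-WT arrays, while Kifap3, Bbs12 and Bbs2 show little difference between groups.

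**Figure D2:**
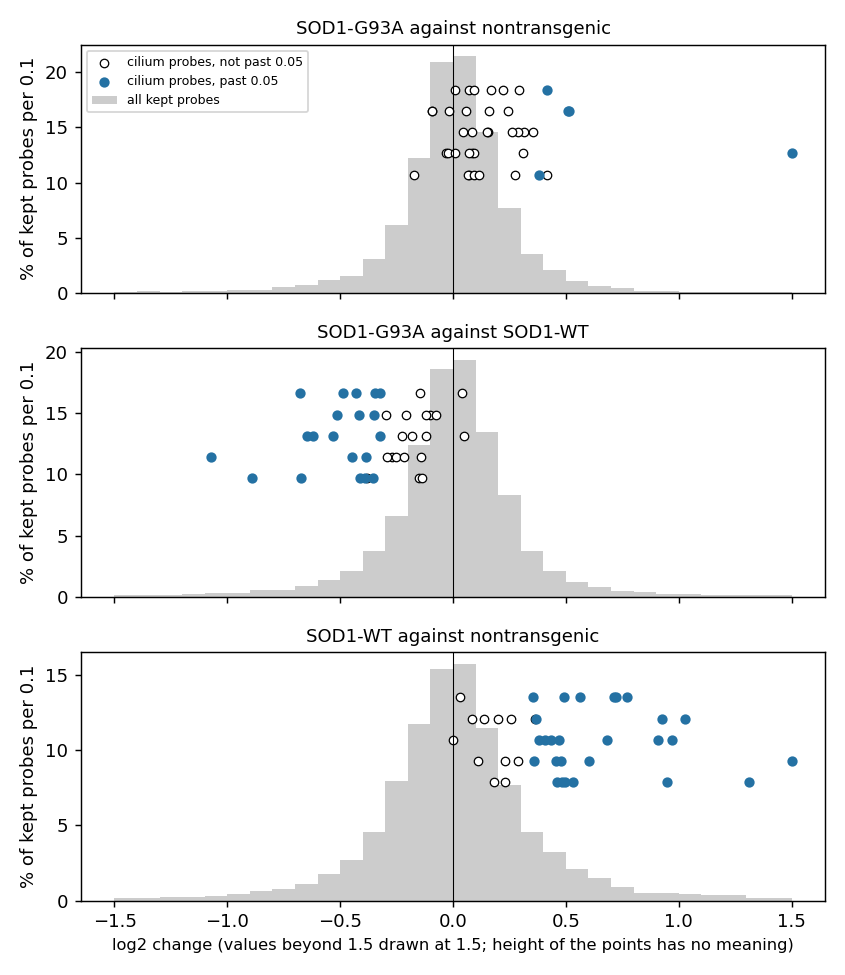
Log2 changes of the member probes (points; filled, past an adjusted p of 0.05) over the distribution of all 13972 kept probes (grey bars, percent of probes per 0.1 of log2 change) in the 3 comparisons. The members centre on 0.11 in SOD1-G93A against nontransgenic, on -0.33 in SOD1-G93A against SOD1-WT and on 0.46 in SOD1-WT against nontransgenic glia.

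RFX transcription factors bind the X-box, an inverted repeat found in promoters of many ciliary genes from worms to mammals. Because the members moved together, their promoters (250 bases before to 50 after the start, RefSeq, GRCm38.p6) were searched on both strands for the repeat with 1, 2 or 3 bases between its arms (GTTNCCNGGNAAC, GTTNCCNNGGNAAC and GTTNCCNNNGGNAAC). A single arm (GTTGCC), which can lie within a full match, was searched too. Of the 28 genes with a kept probe, 25 matched the promoter table, with 27 promoters. A full repeat lay in 3 of the 27 (11.1%), those of Bbs7, Tctn3 and Ift57, against 0.776% of all 32851 promoters. The single arm lay in 11 of 27 (40.7%), against 12.5% of all. These sets are unlike, as all promoters take in genes not on the array or not kept, while the members were picked as cilium genes. Whether the matches bear on the members moving together was not tested. The 250 bases upstream of the start are shown for the 3 genes with a full repeat, for Kif3a, the member with the largest change, whose only match is a single arm, and for Ttc8, which rose by both probes and has no match in this window. Matches are in capitals.
Bbs7 promoter, chr3:36613390-36613639, minus strand: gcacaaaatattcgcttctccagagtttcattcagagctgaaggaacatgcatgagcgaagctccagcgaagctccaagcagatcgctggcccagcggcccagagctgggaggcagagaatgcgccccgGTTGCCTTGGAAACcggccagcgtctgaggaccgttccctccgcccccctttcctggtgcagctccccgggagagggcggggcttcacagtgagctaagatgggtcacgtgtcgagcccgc
Tctn3 promoter, chr19:40612232-40612481, minus strand: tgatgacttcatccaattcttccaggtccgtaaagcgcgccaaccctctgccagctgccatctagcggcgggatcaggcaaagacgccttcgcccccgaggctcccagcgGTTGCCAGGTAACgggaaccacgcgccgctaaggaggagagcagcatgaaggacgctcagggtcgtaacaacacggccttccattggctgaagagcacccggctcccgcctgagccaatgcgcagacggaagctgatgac
Ift57 promoter, chr16:49699044-49699293, plus strand: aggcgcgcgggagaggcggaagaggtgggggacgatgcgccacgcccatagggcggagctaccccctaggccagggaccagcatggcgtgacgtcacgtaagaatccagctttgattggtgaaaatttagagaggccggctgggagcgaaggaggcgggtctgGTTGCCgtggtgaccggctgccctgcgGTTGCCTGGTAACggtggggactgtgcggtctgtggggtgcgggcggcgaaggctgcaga
Kif3a promoter, chr11:53567119-53567368, plus strand: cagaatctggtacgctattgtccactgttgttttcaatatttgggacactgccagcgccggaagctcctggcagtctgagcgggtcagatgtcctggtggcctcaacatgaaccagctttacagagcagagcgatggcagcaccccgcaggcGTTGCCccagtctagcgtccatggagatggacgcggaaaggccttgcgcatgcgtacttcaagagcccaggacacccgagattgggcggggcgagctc
Ttc8 promoter, chr12:98920324-98920573, plus strand: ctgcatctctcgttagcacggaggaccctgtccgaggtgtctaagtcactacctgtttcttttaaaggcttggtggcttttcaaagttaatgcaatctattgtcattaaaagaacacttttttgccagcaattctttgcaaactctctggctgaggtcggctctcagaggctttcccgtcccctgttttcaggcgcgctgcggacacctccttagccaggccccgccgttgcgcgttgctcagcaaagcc
In these windows the repeat begins at position -121 of Bbs7, -140 of Tctn3 and -60 of Ift57, and the arm of Kif3a at -98, counted from 0 at the first base of the gene's start. A match describes the letters only, and binding was not measured. Among the genes that rose in SOD1-WT over nontransgenic glia, 9 of 20 promoters held the single arm, and among the other kept members 2 of 7 did.

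The motor genes held both the largest and the smallest differences. Kif3a encodes a motor subunit of kinesin-II, the anterograde motor. Its probe 1 (probes of a gene are numbered from the brightest) read 7.98, 8.46 and 8.36 in nontransgenic, 8.34, 8.82 and 8.89 in SOD1-G93A and 9.53, 9.57 and 9.64 in SOD1-WT glia. Its probe 2 read 4.89, 5.22 and 5.02 in nontransgenic, 6.46, 7.03 and 6.85 in SOD1-G93A and 7.80, 7.96 and 7.78 in SOD1-WT glia. By probe 2 the 3 groups did not overlap, with SOD1-G93A between the others, while by probe 1 only the SOD1-WT arrays stood clear. In SOD1-WT over nontransgenic glia, Kif3a was 2.48-fold higher by probe 1, a log2 change of 1.31 ± 0.15 (adjusted p = 1.62e-05), and 6.99-fold by probe 2, with 2.80 ± 0.14 (adjusted p = 3.84e-09).  Kifap3, the adaptor that joins the kinesin-II motors to their cargo, read 8.77, 8.72 and 8.60 in nontransgenic, 8.93, 8.82 and 8.47 in SOD1-G93A and 9.09, 8.77 and 8.22 in SOD1-WT glia by probe 1, with a change of -0.00 (adjusted p = 0.998). The SOD1-WT arrays of this probe spread over both other groups, and its probe 2, with group means of 6.05 ± 0.12, 6.03 ± 0.05 and 6.13 ± 0.07 (SD, n = 3), gave 0.08 (adjusted p = 0.587).

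**Figure D3:**
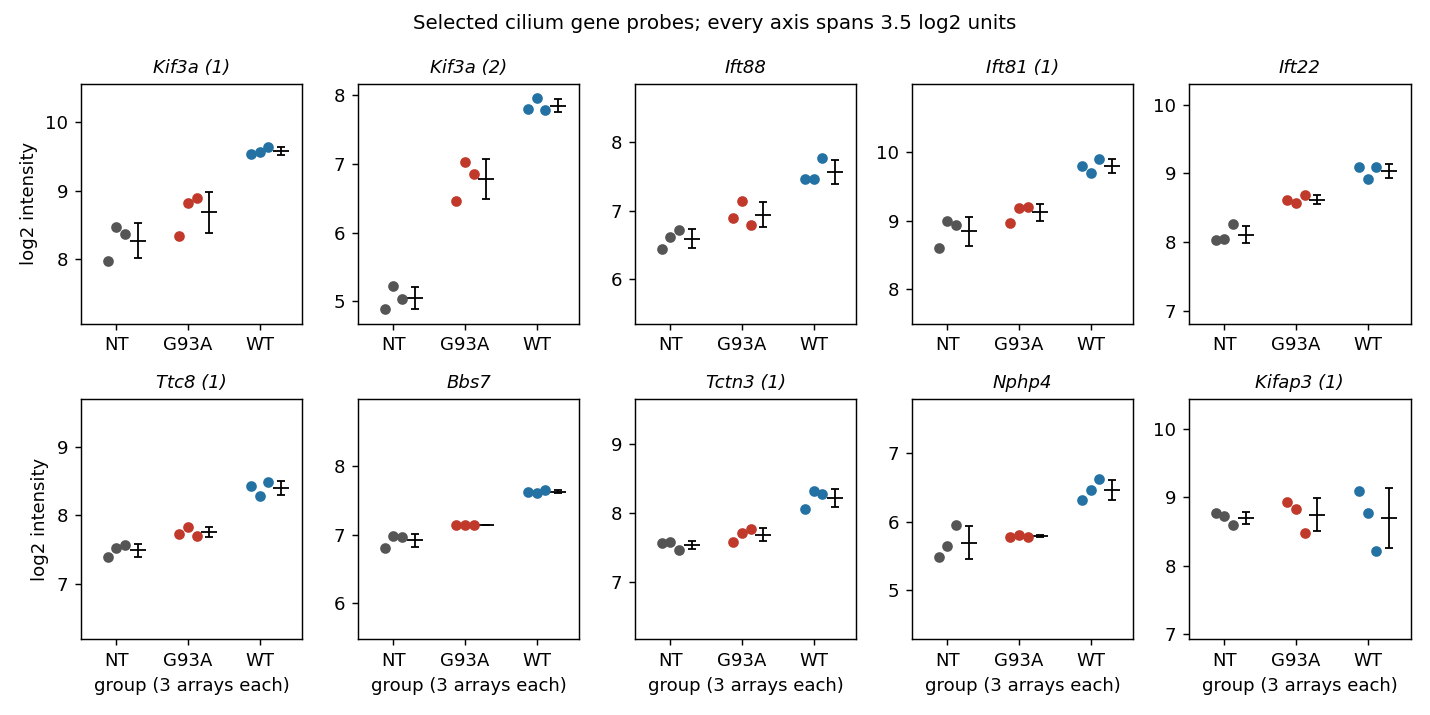
Log2 intensity of 10 member probes on each array (points), with the group mean and SD (bars, n = 3) beside them, for nontransgenic (NT), SOD1-G93A (G93A) and SOD1-WT (WT) glia. The 3 SOD1-WT arrays lie above the other 6 for each probe but Kifap3 (1), whose groups overlap.

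IFT-B, the complex that carries tubulin and other cargo toward the tip, rose almost throughout: 13 of 14 kept probes, for 9 genes, were higher in SOD1-WT than in nontransgenic glia, with a median log2 change of 0.51. Among its core subunits, Ift88, whose loss in mice shortens or abolishes cilia, read 6.45, 6.62 and 6.71 in nontransgenic, 6.90, 7.15 and 6.79 in SOD1-G93A and 7.46, 7.47 and 7.76 in SOD1-WT glia. Ift81, which with Ift74 binds tubulin, read 8.60, 8.99 and 8.94 in nontransgenic, 8.97, 9.18 and 9.20 in SOD1-G93A and 9.79, 9.69 and 9.89 in SOD1-WT glia by probe 1. Ift22, a small GTPase-like subunit, read 8.03, 8.04 and 8.26 in nontransgenic, 8.61, 8.56 and 8.69 in SOD1-G93A and 9.10, 8.92 and 9.09 in SOD1-WT glia. For these 3 probes every SOD1-WT array lay above the 6 others, and the changes over nontransgenic glia were 0.97 ± 0.12 (adjusted p = 4.33e-05) for Ift88, 0.95 ± 0.12 (adjusted p = 3.9e-05) for Ift81 and 0.93 ± 0.10 (adjusted p = 9.86e-06) for Ift22. Probe 2 of Ift81 read 7.80, 7.89 and 8.05 in nontransgenic, 8.11, 8.27 and 8.28 in SOD1-G93A and 8.80, 8.69 and 8.05 in SOD1-WT glia, so that SOD1-WT replicate 3 lay level with the highest nontransgenic array. Its change was 0.60 ± 0.16 (adjusted p = 0.0132), a call that ended on leaving out nontransgenic replicate 1 (now at adjusted p = 0.0527) or SOD1-WT replicate 1 (0.0637) or 2 (0.0576) and with no filter (0.0671), where adjusted p over all 18 alternatives ran from 6.43e-05 to 0.0671.

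Ift27, a small GTPase that links IFT-B to the BBSome, read 8.40, 8.55 and 8.48 in nontransgenic, 8.86, 8.94 and 8.88 in SOD1-G93A and 9.01, 8.95 and 9.15 in SOD1-WT glia by probe 1. By probe 2 it read 6.24, 6.10 and 6.08 in nontransgenic, 6.40, 6.67 and 6.49 in SOD1-G93A and 6.55, 6.76 and 6.70 in SOD1-WT glia. Both transgenic groups lay above the nontransgenic arrays by either probe, and the changes in SOD1-WT glia were 0.56 ± 0.09 (adjusted p = 0.000525) and 0.53 ± 0.10 (adjusted p = 0.00175). Ift52, a scaffold of the core, read 8.17, 8.32 and 8.41 in nontransgenic, 8.41, 8.32 and 8.45 in SOD1-G93A and 8.70, 8.65 and 8.99 in SOD1-WT glia, with a change of 0.48 ± 0.11 (adjusted p = 0.00582) and SOD1-WT replicate 3 highest.

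Of the peripheral IFT-B subunits, Ift172, the largest of them, read 8.68, 8.79 and 8.59 in nontransgenic, 8.80, 8.87 and 8.88 in SOD1-G93A and 9.28, 9.13 and 9.12 in SOD1-WT glia by probe 1. By probe 2 it read 7.00, 6.96 and 6.92 in nontransgenic, 6.99, 7.01 and 7.09 in SOD1-G93A and 7.48, 7.28 and 7.49 in SOD1-WT glia. Both probes set the SOD1-WT arrays apart, with changes over nontransgenic glia of 0.49 ± 0.10 (adjusted p = 0.00162) and 0.46 ± 0.10 (adjusted p = 0.00253). Ift80, a subunit mutated in human skeletal ciliopathies, read 5.68, 5.93 and 5.97 in nontransgenic, 6.07, 6.12 and 6.25 in SOD1-G93A and 6.28, 6.79 and 6.67 in SOD1-WT glia, and its change was 0.72 ± 0.13 (adjusted p = 0.00105). Ift20, the subunit that also sits at the Golgi and helps sort membrane cargo, read 9.22, 9.21 and 9.26 in nontransgenic, 9.26, 9.47 and 9.22 in SOD1-G93A and 9.66, 9.60 and 9.51 in SOD1-WT glia by probe 1. By probe 2 it read 8.34, 8.40 and 8.62 in nontransgenic, 8.71, 8.50 and 8.61 in SOD1-G93A and 8.86, 8.77 and 8.87 in SOD1-WT glia. The SOD1-WT arrays were the highest by both Ift20 probes, with small changes of 0.36 ± 0.10 (adjusted p = 0.0154) and 0.38 ± 0.10 (adjusted p = 0.0149). The call of Ift20 probe 1 ended on leaving out nontransgenic replicate 2 (now at adjusted p = 0.0529) or SOD1-WT replicate 1 (0.0538), where adjusted p over all 18 alternatives ran from 0.00483 to 0.0538. The call of probe 2 ended on leaving out nontransgenic replicate 1 (now at adjusted p = 0.0666) or 2 (0.0589), where adjusted p over all 18 alternatives ran from 0.00704 to 0.0666.

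Ift57, a peripheral subunit that binds kinesin-II, read 6.98, 7.11 and 6.91 in nontransgenic, 7.44, 7.25 and 7.24 in SOD1-G93A and 7.65, 7.54 and 7.11 in SOD1-WT glia by probe 1, where SOD1-WT replicate 3 lay at 7.11 beside the nontransgenic arrays. The change was 0.43 ± 0.13 (adjusted p = 0.027), and its call ended on leaving out nontransgenic replicate 1 (now at adjusted p = 0.0722) or 3 (0.0889) or SOD1-WT replicate 1 (0.113) or 2 (0.0913) and with no filter (0.0773), where adjusted p over all 18 alternatives ran from 0.00104 to 0.113. Probe 2, with means of 5.60 ± 0.24, 5.84 ± 0.26 and 5.96 ± 0.50 (SD, n = 3), gave 0.36 (adjusted p = 0.245) and was again lowest among SOD1-WT arrays on replicate 3, at 5.38.

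IFT-A, the complex needed for return traffic and for entry of membrane proteins, was measured by 2 genes. Ift43 read 9.34, 9.11 and 9.04 in nontransgenic, 9.20, 9.15 and 9.16 in SOD1-G93A and 9.46, 9.57 and 9.52 in SOD1-WT glia, with a change in SOD1-WT over nontransgenic glia of 0.35 ± 0.10 (adjusted p = 0.0181). The call ended on leaving out nontransgenic replicate 2 (now at adjusted p = 0.0682) or 3 (0.0793) or SOD1-WT replicate 2 (0.0592), where adjusted p over all 18 alternatives ran from 0.00626 to 0.0793. Ift122, another IFT-A subunit, averaged 6.04 ± 0.17, 5.95 ± 0.11 and 6.24 ± 0.14 (SD, n = 3) in nontransgenic, SOD1-G93A and SOD1-WT cultures, with groups that overlap between SOD1-WT and nontransgenic and a change of 0.20 (adjusted p = 0.241).

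In the BBSome 5 of 9 kept probes, for 7 genes, were higher in SOD1-WT than in nontransgenic glia, with a median log2 change of 0.47. Ttc8, the gene of subunit BBS8, read 7.39, 7.52 and 7.57 in nontransgenic, 7.72, 7.83 and 7.70 in SOD1-G93A and 8.43, 8.28 and 8.48 in SOD1-WT glia by probe 1. By probe 2 it read 7.10, 7.15 and 7.22 in nontransgenic, 7.74, 7.58 and 7.69 in SOD1-G93A and 7.99, 8.17 and 8.39 in SOD1-WT glia. The groups followed each other without overlap by both probes, and the changes in SOD1-WT glia were 0.91 ± 0.10 (adjusted p = 8.59e-06) and 1.03 ± 0.11 (adjusted p = 8.45e-06). Bbs7, a beta-propeller subunit, read 6.80, 6.98 and 6.96 in nontransgenic, 7.14, 7.14 and 7.14 in SOD1-G93A and 7.62, 7.61 and 7.65 in SOD1-WT glia. Its SOD1-WT arrays lay close together and above the rest, with a change of 0.71 ± 0.09 (adjusted p = 4.33e-05). Bbs1, the subunit most often mutated in human Bardet-Biedl syndrome, read 5.13, 4.86 and 4.84 in nontransgenic, 5.07, 5.03 and 4.93 in SOD1-G93A and 5.36, 5.37 and 5.54 in SOD1-WT glia, with 0.48 ± 0.11 (adjusted p = 0.00419), and Bbs4, which binds the centriolar satellite protein PCM1, read 8.52, 8.56 and 8.38 in nontransgenic, 8.70, 8.88 and 8.74 in SOD1-G93A and 9.12, 8.98 and 8.77 in SOD1-WT glia, with 0.47 ± 0.11 (adjusted p = 0.00563). Only SOD1-WT glia stood clear for Bbs1, whereas for Bbs4 SOD1-G93A and SOD1-WT overlapped.

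The remaining BBSome probes did not pass in this comparison. Bbs5, a subunit that binds phosphoinositides, read 8.40, 8.35 and 8.32 in nontransgenic, 8.32, 8.32 and 8.16 in SOD1-G93A and 8.70, 8.58 and 8.56 in SOD1-WT glia, and its change was 0.26 (adjusted p = 0.0612). Probe 1 of Bbs9, a scaffold subunit, read 8.57, 8.63 and 8.62 in nontransgenic, 8.41, 8.41 and 8.48 in SOD1-G93A and 8.73, 8.67 and 8.98 in SOD1-WT glia, and its change was 0.18 (adjusted p = 0.217). In both genes the SOD1-G93A arrays were the lowest of the 3 groups. Bbs2 averaged 7.15 ± 0.04, 7.12 ± 0.07 and 7.26 ± 0.17 (SD, n = 3), with a change of 0.11 (adjusted p = 0.489), and probe 2 of Bbs9 averaged 4.82 ± 0.19, 4.80 ± 0.28 and 5.05 ± 0.17, with 0.23 (adjusted p = 0.287). Bbs12, part of the chaperonin-like complex that helps assemble the BBSome, averaged 5.68 ± 0.05, 5.75 ± 0.03 and 5.71 ± 0.15, with 0.03 (adjusted p = 0.863). Arl3, the GTPase that releases lipidated cargo inside the cilium, averaged 10.63 ± 0.04, 10.72 ± 0.13 and 10.86 ± 0.18, with 0.23 (adjusted p = 0.163). Groups overlapped between SOD1-WT and nontransgenic glia for Bbs2, Bbs9 probe 2, Bbs12 and Arl3.

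At the transition zone 6 of 8 kept probes, for 6 genes, were higher in SOD1-WT than in nontransgenic glia, with a median log2 change of 0.43. Nphp4, a nephronophthisis protein of this gate, read 5.48, 5.64 and 5.95 in nontransgenic, 5.78, 5.80 and 5.77 in SOD1-G93A and 6.32, 6.45 and 6.62 in SOD1-WT glia. Tctn3, a tectonic of the membrane module, read 7.56, 7.57 and 7.46 in nontransgenic, 7.58, 7.71 and 7.76 in SOD1-G93A and 8.06, 8.32 and 8.27 in SOD1-WT glia by probe 1. Every SOD1-WT array lay above the 6 others for both, with changes over nontransgenic glia of 0.77 ± 0.12 (adjusted p = 0.000314) and 0.68 ± 0.10 (adjusted p = 0.000174). Probe 2 of Tctn3 read 5.04, 4.84 and 4.96 in nontransgenic, 5.18, 5.12 and 5.02 in SOD1-G93A and 5.45, 5.31 and 5.18 in SOD1-WT glia, with 0.37 ± 0.10 (adjusted p = 0.0177), and its call ended on leaving out nontransgenic replicate 2 (now at adjusted p = 0.0828) or SOD1-WT replicate 1 (0.0724) and with normexp (0.0507), where adjusted p over all 18 alternatives ran from 0.00444 to 0.0828. Iqcb1, a nephrocystin that binds calmodulin and CEP290, read 8.22, 8.21 and 8.22 in nontransgenic, 8.23, 8.32 and 8.34 in SOD1-G93A and 8.44, 8.70 and 8.73 in SOD1-WT glia by probe 1, with 0.41 ± 0.10 (adjusted p = 0.00785), while probe 2 averaged 5.30 ± 0.26, 5.36 ± 0.10 and 5.44 ± 0.21 (SD, n = 3) and gave 0.14 (adjusted p = 0.533).

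Cc2d2a, a C2-domain protein of the same gate, read 8.00, 8.26 and 8.14 in nontransgenic, 8.21, 8.16 and 8.06 in SOD1-G93A and 8.89, 8.50 and 8.39 in SOD1-WT glia, with 0.46 ± 0.13 (adjusted p = 0.017). SOD1-WT replicate 1 was the highest of its arrays, and the call ended on leaving out nontransgenic replicate 1 (now at adjusted p = 0.0738) or SOD1-WT replicate 1 (0.0722) and with no filter (0.0516), where adjusted p over all 18 alternatives ran from 0.00544 to 0.0738. Rpgrip1l, which anchors the gate, read 5.37, 5.47 and 5.35 in nontransgenic, 5.46, 5.64 and 5.44 in SOD1-G93A and 5.77, 5.67 and 6.24 in SOD1-WT glia, with 0.50 ± 0.13 (adjusted p = 0.0143), and SOD1-WT replicate 3 highest. That call ended with no filter (now at adjusted p = 0.0516), where adjusted p over all 18 alternatives ran from 0.00636 to 0.0516. Tctn2 averaged 7.61 ± 0.08, 7.68 ± 0.07 and 7.90 ± 0.16 (SD, n = 3), with a change of 0.29 (adjusted p = 0.062).

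Mutant glia were next set against nontransgenic glia, which share the nontransgenic arrays with the comparison above. Here 5 of 39 member probes were higher and 0 lower, while 10.6% of all kept probes passed, 5.11% higher and 5.53% lower. At an unadjusted p under 0.05 limma gave 13 higher and 0 lower. The share in either direction, 12.8%, is near that background. By gene, 2 of 28 were higher, against 5.21% of all genes. Those past the threshold were Kif3a by probe 2, at 1.73 ± 0.14 (adjusted p = 1.73e-06) or 3.33-fold, Ift22 at 0.51 ± 0.10 (adjusted p = 0.00458), Ttc8 by probe 2 at 0.51 ± 0.11 (adjusted p = 0.00825), and Ift27 at 0.41 ± 0.09 (adjusted p = 0.0111) by probe 1 and 0.38 ± 0.10 (adjusted p = 0.0324) by probe 2. The other probes of Kif3a and Ttc8 gave 0.42 (adjusted p = 0.108) and 0.26 (adjusted p = 0.123). Over all member probes the median log2 change was 0.11, against 0.01 over all kept probes, and 33 of 39 were above 0, against 52.2% of all. The count fell to 3 without SOD1-G93A replicate 2. The call of Ift27 probe 1 ended on leaving out nontransgenic replicate 1 (now at adjusted p = 0.0512) or SOD1-G93A replicate 2 (0.0509), where adjusted p over all 18 alternatives ran from 0.00326 to 0.0512. The call of its probe 2 ended on leaving out nontransgenic replicate 2 (now at adjusted p = 0.114) or 3 (0.101) or SOD1-G93A replicate 2 (0.147) or 3 (0.0779), where adjusted p over all 18 alternatives ran from 0.0102 to 0.147.

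Among members not past the threshold in this comparison, Ift88 gave 0.35 (adjusted p = 0.0976), Bbs4 0.29 (adjusted p = 0.126) and Bbs7 0.22 (adjusted p = 0.161), and in each of these genes every SOD1-G93A array lay above every nontransgenic array. Such a gap was seen upward for 15 of the 39 member probes (15.4% of all kept probes) and downward for 2, Bbs5 and Bbs9 by probe 1 (14% of all).

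Glia with mutant SOD1 were then compared with glia carrying normal human SOD1. Here 20 of 39 member probes were lower in SOD1-G93A glia and 0 higher, while 15% of all kept probes passed, 8.13% lower and 6.91% higher. At an unadjusted p under 0.05 the limma counts were 24 and 0. By gene, 17 of 28 were lower, against 8.86% of all genes. The median log2 change was -0.33, against 0.01 over all kept probes, and 2 of 39 were above 0. In 26 of the 39 every SOD1-G93A array lay below every SOD1-WT array, as 15.4% of all kept probes also did, and 30.3% were apart in either direction. The largest difference was in Kif3a, at -1.07 ± 0.14 (adjusted p = 8.79e-05) by probe 2 and -0.89 ± 0.15 (adjusted p = 0.000903) by probe 1. Nphp4 gave -0.68 ± 0.12 (adjusted p = 0.00149), Ift81 by probe 1 -0.67 ± 0.12 (adjusted p = 0.00133), and Ttc8 -0.65 ± 0.10 (adjusted p = 0.000367) and -0.52 ± 0.11 (adjusted p = 0.0054) by its probes. Ift88 gave -0.62 ± 0.12 (adjusted p = 0.0033), Tctn3 by probe 1 -0.53 ± 0.10 (adjusted p = 0.00221) and Bbs7 -0.49 ± 0.09 (adjusted p = 0.00186). These 9 calls held in all 18 alternatives. The count was 12 without SOD1-G93A replicate 1, 12 without replicate 2 and 11 without replicate 3, and 15 without SOD1-WT replicate 3.

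The other 11 calls of this comparison ended under at least 1 alternative. They were Ift22 (-0.42 (adjusted p = 0.0127)), Ift172 by probe 2 (-0.39 (adjusted p = 0.0124)) and by probe 1 (-0.33 (adjusted p = 0.035)), Bbs1 (-0.41 (adjusted p = 0.0175)) and Bbs5 (-0.35 (adjusted p = 0.0214)). The rest were Bbs9 by probe 1 (-0.36 (adjusted p = 0.0285)), Cc2d2a (-0.45 (adjusted p = 0.0299)), Ift43 (-0.34 (adjusted p = 0.0319)), Ift52 (-0.39 (adjusted p = 0.0321)), Iqcb1 by probe 1 (-0.32 (adjusted p = 0.0431)) and Ift80 (-0.43 (adjusted p = 0.0446)). The bracketed values after each setting are its adjusted p. Ift22 ended on leaving out SOD1-G93A replicate 2 (now at adjusted p = 0.0557), where adjusted p over all 18 alternatives ran from 0.00487 to 0.0557. Ift172 probe 2 ended on leaving out SOD1-G93A replicate 1 (now at adjusted p = 0.0518), where adjusted p over all 18 alternatives ran from 0.00577 to 0.0518, and its probe 1 on leaving out SOD1-G93A replicate 1 (now at adjusted p = 0.122) or 2 (0.0835) or 3 (0.0751) or SOD1-WT replicate 1 (0.119) or 2 (0.0576) and with only these 2 groups fitted (0.0528), where adjusted p over all 18 alternatives ran from 0.00999 to 0.122. Bbs1 ended on leaving out SOD1-G93A replicate 3 (now at adjusted p = 0.0744) or SOD1-WT replicate 3 (0.0513), where adjusted p over all 18 alternatives ran from 0.0105 to 0.0744. Bbs5 ended on leaving out SOD1-G93A replicate 3 (now at adjusted p = 0.0984) or SOD1-WT replicate 1 (0.0753), where adjusted p over all 18 alternatives ran from 0.00573 to 0.0984, and Bbs9 on leaving out SOD1-G93A replicate 1 (now at adjusted p = 0.0915) or 2 (0.0904) or 3 (0.0579) or SOD1-WT replicate 3 (0.0858) and with median centring (0.0505), with only these 2 groups fitted (0.0547), where adjusted p over all 18 alternatives ran from 0.0122 to 0.0915. Cc2d2a ended on leaving out SOD1-G93A replicate 1 (now at adjusted p = 0.0583) or 2 (0.0752) or 3 (0.106) or SOD1-WT replicate 1 (0.117) and on the authors' table (0.052), with no filter (0.0833), where adjusted p over all 18 alternatives ran from 0.00985 to 0.117. Ift43 ended on leaving out SOD1-G93A replicate 1 (now at adjusted p = 0.0743) or 2 (0.0951) or 3 (0.09) or SOD1-WT replicate 2 (0.093) or 3 (0.0532), where adjusted p over all 18 alternatives ran from 0.0114 to 0.0951. Ift52 ended on leaving out SOD1-G93A replicate 1 (now at adjusted p = 0.0815) or 2 (0.118) or 3 (0.0608) or SOD1-WT replicate 3 (0.1) and with no filter (0.0566), where adjusted p over all 18 alternatives ran from 0.021 to 0.118. Iqcb1 ended on leaving out nontransgenic replicate 1 (now at adjusted p = 0.0526) or 2 (0.064) or 3 (0.0569), SOD1-G93A replicate 1 (0.151) or 2 (0.0948) or 3 (0.0807) or SOD1-WT replicate 2 (0.128) or 3 (0.109) and with median centring (0.0532), with only these 2 groups fitted (0.078), where adjusted p over all 18 alternatives ran from 0.0148 to 0.151. Ift80 ended on leaving out nontransgenic replicate 2 (now at adjusted p = 0.0606) or 3 (0.0524), SOD1-G93A replicate 1 (0.147) or 2 (0.121) or 3 (0.0633) or SOD1-WT replicate 2 (0.166) or 3 (0.105) and on the authors' table (0.0501), with normexp (0.0543), with no filter (0.12), with only these 2 groups fitted (0.0599), where adjusted p over all 18 alternatives ran from 0.00616 to 0.166. Members with no call here include Ift27, at -0.15 (adjusted p = 0.375) and -0.15 (adjusted p = 0.408), and Bbs4, at -0.18 (adjusted p = 0.332).

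By call, the members fell into a few patterns over the 3 comparisons, which share arrays. For 3 probes, of Kif3a, Ttc8 and Ift22, each step passed, with SOD1-G93A above nontransgenic and below SOD1-WT glia. For 15 probes SOD1-WT was higher than both other groups, which did not differ past the threshold from each other. For the 2 Ift27 probes both transgenic groups were higher than nontransgenic glia, with no call between them. The mean of SOD1-G93A glia lay between the others for all 27 probes that rose in SOD1-WT over nontransgenic glia, as it did for 79.2% of the 3539 probes called in that comparison. Several probes of 1 gene gave the same sign for 10 of 11 genes in SOD1-WT over nontransgenic glia, with a median gap of 0.09 in log2 change. Kif3a had the largest gap, 1.50. Another background correction (normexp without controls) shrank the changes of several probes by over 1.5 times, as log2 changes or as folds. In SOD1-WT over nontransgenic glia it gave 1.87 for Kif3a by probe 2, against 2.80, so the 6.99-fold difference was smaller on that scale. It gave 0.48 for Nphp4, 0.47 for Ift80, 0.28 for Rpgrip1l, 0.22 for Bbs1 and 0.17 for Tctn3 by probe 2. In SOD1-G93A over nontransgenic glia it gave 1.03 for Kif3a by probe 2 and 0.25 for Ift27 by probe 2, and against SOD1-WT glia -0.43 for Nphp4 and -0.20 for Bbs1. These passed the threshold apart from Tctn3. Without SOD1-WT replicate 3, Rpgrip1l gave 0.32 over nontransgenic glia and also passed.

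Cilium genes outside the member list were counted in lists drawn up by role, each gene by its brightest kept probe. Over all 9842 genes 14.0% were higher and 13.0% lower in SOD1-WT than in nontransgenic glia, the shares against which these counts stand. Of 12 further transition zone genes 8 were higher and 1 lower in SOD1-WT than in nontransgenic glia, with a median log2 change of 0.45. Tmem107 rose by 0.96 (adjusted p = 1.17e-05) and Tmem231 by 0.70 (adjusted p = 0.000173). Both encode membrane proteins of the gate. The lower gene, named after its values were seen, was the casein kinase gene Csnk1d (-0.43, adjusted p = 0.0103). Of 7 further IFT and BBSome genes 3 were higher and 1 lower, with a median of 0.09. The dynein-2 chain Wdr34 (0.69, adjusted p = 0.000266) and the IFT-B subunit Cluap1 (0.66, adjusted p = 0.000915) were among the higher. The lower gene, also named after its values were seen, was the kinesin Kif17 (adjusted p = 0.0162), which was not above background on any transgenic array. Kif17 passed the filter only through the nontransgenic arrays, where it was highest, so this call leans on that filter. In the basal body list 5 of 17 were higher and 1 lower, led by Cep83, a distal appendage protein (0.82, adjusted p = 0.000276), and Dzip1l (0.57, adjusted p = 0.000512). Ciliary membrane traffic genes did not exceed the share over all genes: 2 of 16 passed, both higher, the GTPase gene Rabl2 (1.57, adjusted p = 6.78e-08) and Unc119b (0.31, adjusted p = 0.0242). Among 8 membrane and signalling proteins 1 passed: Pdgfra, a growth factor receptor also made by fibroblasts and oligodendrocyte precursors, fell by 2.08 (adjusted p = 2.58e-08). In the list of cilium disassembly genes 3 of 6 were higher, namely the kinases Cdk20 (1.37, adjusted p = 8.26e-07) and Mak (adjusted p = 0.000168) and, named after its values were seen to complete the count, Tchp (0.68, adjusted p = 0.000852), a centriolar protein that holds back cilium growth. Mak was not above background on any of the 6 arrays outside the SOD1-WT group, so no fold is given. It passed the filter only through the SOD1-WT arrays, where it was highest, so its place in the count leans on that filter.

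Some transcription factors of ciliogenesis, and the genes of motile cilia, moved with the members. Rfx2, an X-box factor, averaged 9.07, 9.57 and 10.28 in nontransgenic, SOD1-G93A and SOD1-WT cultures, and rose by 1.21 (adjusted p = 1.08e-06) in SOD1-WT and by 0.50 (adjusted p = 0.00767) in SOD1-G93A over nontransgenic glia. Foxj1, the master factor of motile cilia, read 4.66, 4.96 and 4.83 in nontransgenic, 5.16, 4.95 and 5.11 in SOD1-G93A and 5.73, 6.05 and 6.10 in SOD1-WT glia, a rise of 1.15 (adjusted p = 6.63e-06) in SOD1-WT over nontransgenic glia. Of 4 kept genes in the list of ciliogenesis factors 3 were higher in that comparison, against 14.0% of all genes. The third, named after its values were seen, was Rfx3 (adjusted p = 0.00139), detected on 0 nontransgenic, 2 SOD1-G93A and 3 SOD1-WT arrays. Rfx3 passed the filter only with the SOD1-WT arrays, where it was highest, so its call leans on that filter. Rfx5, also named after its values were seen, gave -0.08 (adjusted p = 0.688), and Rfx1 and Rfx4 were on the array but not kept. All 16 kept motile cilium genes, Foxj1 among them, were higher in SOD1-WT than in nontransgenic glia, with a median of 1.51, against 14.0% of all genes. Of the 16, 15 were lower in SOD1-G93A than in SOD1-WT cultures, with a median of -1.19, against 8.86% of all genes. Ccdc40 passed the filter only through the 3 SOD1-WT arrays, the group where it was highest, so its calls lean on that filter. Spag6, Spag16, Tmem212, Hydin and Spef2 were on the array but not kept. Against nontransgenic glia 7 of the 16 were higher in SOD1-G93A glia, against 5.21% of all genes. Rsph4a, a radial spoke head gene, rose by 2.34 (adjusted p = 3.58e-09) and Dynlrb2, a dynein light chain of ciliated cells, by 1.91 (adjusted p = 3.25e-09) in SOD1-WT over nontransgenic glia. The summed linear intensity of the motile list was 2910 to 3389 in nontransgenic, 4077 to 4404 in SOD1-G93A and 10654 to 10789 in SOD1-WT glia. The part of multiciliated cells in the members' rise was not tested.

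Markers of some other cell types also differed between the groups, here too against 14.0% higher and 13.0% lower over all genes in SOD1-WT against nontransgenic glia. All 12 kept fibroblast and meninges markers were lower in SOD1-WT than in nontransgenic glia, with a median of -2.51, and their summed intensity was 33565 to 35591 in nontransgenic, 26146 to 27208 in SOD1-G93A and 5485 to 7017 in SOD1-WT glia. Ptgds, an enzyme abundant in the leptomeninges, averaged 13.16, 12.91 and 6.86, and the last marker on the array, Foxc1, was not kept. Of 11 astrocyte markers 5 were higher and 2 lower in SOD1-WT than in nontransgenic glia, with sums of 21913 to 23592 in nontransgenic, 24693 to 26390 in SOD1-G93A and 27087 to 29342 in SOD1-WT glia. Of 7 ependymal and choroid plexus markers 4 were higher and 2 lower in that comparison (sums of 1514 to 2227, 1976 to 2538 and 3758 to 3877). The higher were Otx2, Folr1, Foxj1 and Dynlrb2, of which Foxj1 and Dynlrb2 are also in the motile list. The lower were Aqp1, by 4.45, and Clic6, named after its values were seen, and Kl was not kept. Clic6 was detected on 3 nontransgenic, 0 SOD1-G93A and 1 SOD1-WT arrays. It passed the filter only through the nontransgenic arrays, where it was highest, so its call leans on that filter. Dynlrb2 averaged 11.62 in SOD1-WT glia, the highest of the 7 there, so it weighs most in that sum. Endothelial and mural markers had 1 of 5 higher and 2 lower, with Kdr, Tek, Cldn5 and Tie1 not kept. Other lists had few calls. Microglia and macrophage markers had 1 of 10 higher and 1 lower, oligodendrocyte lineage markers 1 of 8 higher and 2 lower, and neuron markers 1 of 4 lower, with Syt1, Nefl, Nefm and Dcx not kept. Of 13 cell cycle genes 1 was lower in SOD1-WT and 4 in SOD1-G93A than in nontransgenic glia. In SOD1-G93A against nontransgenic glia 6.22% of all genes were lower. The part of these differences in the members' values was not tested.

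**Figure D4:**
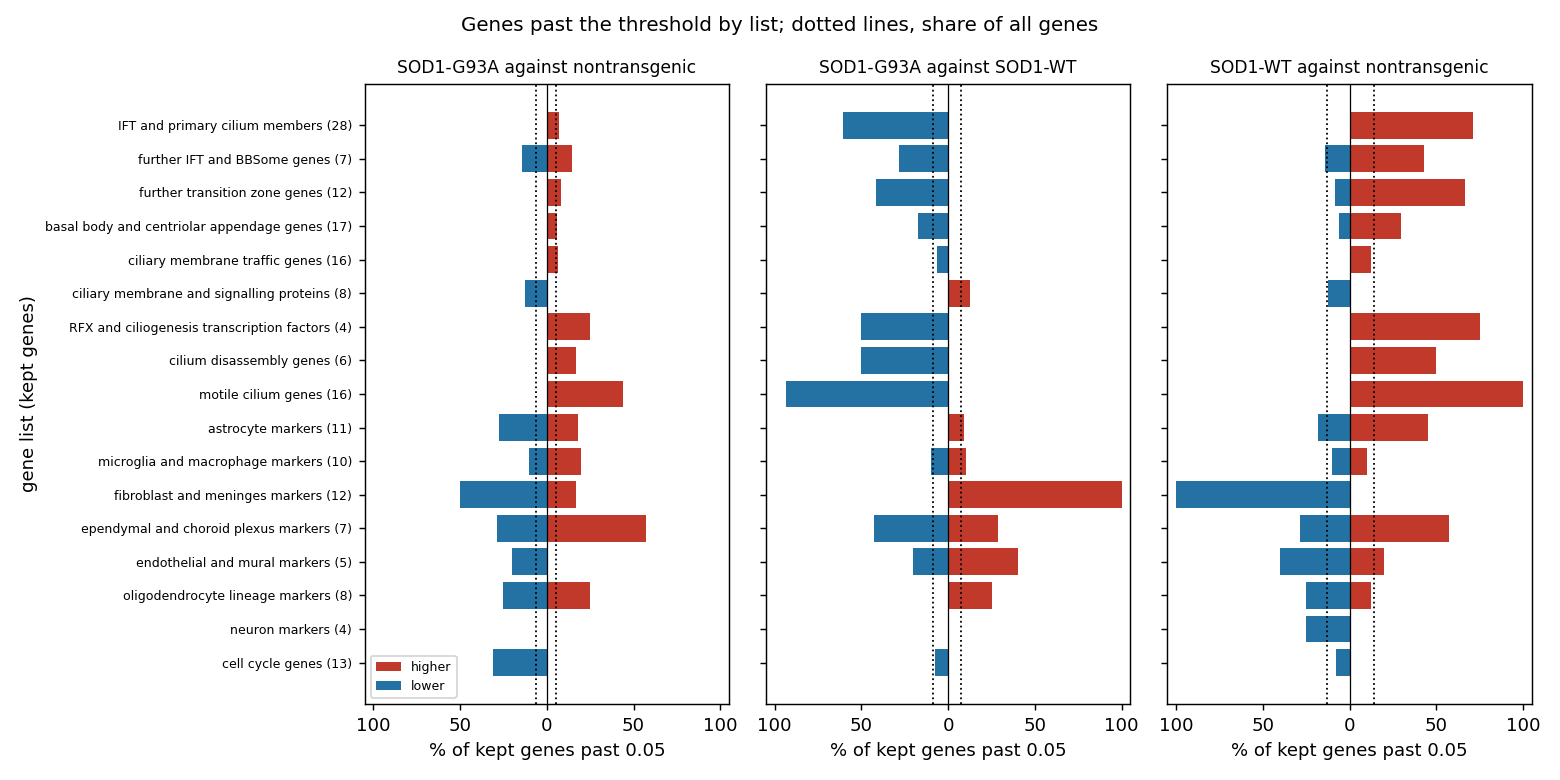
Percent of kept genes past an adjusted p of 0.05, higher (red, to the right) or lower (blue, to the left), in each gene list for the 3 comparisons, with the number of kept genes in brackets and the shares over all genes as dotted lines. In SOD1-WT against nontransgenic glia the members (20 of 28) and motile cilium genes (16 of 16) lie to the right and the fibroblast and meninges markers (12 of 12) to the left. Of the motile cilium genes, Ccdc40 passed the filter only through the SOD1-WT arrays.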

How the data were processed

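Total RNA from 9 glial cultures, 3 biological replicates per genotype by the series design text, was amplified with the Illumina TotalPrep kit and read on a mouse BeadArray. Per the submitters' processing notes BeadStudio was used, and its version is not given in the sources used here. Per the file headers the deposited raw table holds 4 values a probe: bead intensity, the count of beads, the standard error of their signal and a detection p-value. The authors' normalised intensity table, whose method is not stated and which holds values below 0, served as an alternative after adding 11.2 and taking log2.

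Raw intensities were processed with neqc (background inferred from the detection p-values, offset 16, quantile normalisation, log2) in limma 3.58.1 under R 4.3.3. Kept probes had detection p-values under 0.01 on 3 or more arrays. All 9 arrays entered 1 limma fit with 3 groups (6 residual and 7.52 prior degrees of freedom), tested two-sided with Benjamini-Hochberg adjustment per comparison. Of 24613 probes 20984 were paired with 1 gene symbol in the platform annotation, 1 with several and 3628 with none, and only those with 1 were named. Each member probe was read from 19 to 70 beads, and the number of arrays limits precision. Every member probe past the threshold is named with its value on each array, and up to 2 genes of smallest p per other list and comparison. Further genes of these lists, such as Csnk1d, Tchp, Ccdc40, Rfx3, Rfx5 and Clic6, were named after their values were seen. The members, lists, tests and alternatives were chosen with earlier results of these data known. The files name no genome build, so coordinates are those of the promoter table only. Several genes stand in more than 1 list: Foxj1 in 3, Dynlrb2 and Pdgfra in 2.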

Additional observations from a re-analysis of the deposited data

How the results depend on the processing

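Each result was recomputed under 18 alternatives: the authors' normalised table, normexp without controls (offset 50), median centring, no filter, detection on all arrays, only the 2 groups compared, a replicate block, a trended and robust fit, array weights, and each of the 9 arrays left out in turn. No change of a member reversed its direction past the threshold. In SOD1-G93A against nontransgenic glia the 5 higher members became 5 to 6 under the settings that keep every array and 3 to 6 with 1 array left out, the lowest without SOD1-G93A replicate 2. In SOD1-G93A against SOD1-WT glia the 20 lower members became 16 to 21 and, with 1 array left out, 11 to 19. In SOD1-WT against nontransgenic glia the 27 higher members became 24 to 30 and 22 to 29. Of the members' calls, 3 of 5, 9 of 20 and 19 of 27 held under all 18 alternatives in these comparisons. With the replicate block the counts were 6, 20 and 28. Same-numbered samples correlated between -0.02 and 0.15 in their deviations from the group means, mostly positive. Differently numbered samples of different groups ran from -0.20 to 0.19, a range that holds all those values. The numbers were not taken to pair the samples. Precision is limited by 3 arrays a group, and bead noise was highest on SOD1-WT replicate 3.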

Other observations

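SOD1-WT replicate 3 was the lowest SOD1-WT array for several cilium probes: 7.11 for Ift57 by probe 1 and 5.38 by probe 2, 8.05 for Ift81 by probe 2, 8.22 for Kifap3 by probe 1 and 8.77 for Bbs4. For other probes the same array was the highest of the group, among them Kif3a by probe 1 (9.64), Ift88 (7.76) and Ift81 by probe 1 (9.89). Bbs1 (5.54), Ift52 (8.99), Nphp4 (6.62) and Rpgrip1l (6.24) were highest there too. The same gene Ift81 thus ranked this array first of the group by probe 1 and last by probe 2, as did Kif3a (9.64 and 7.78). Ift172 and Ift20 ranked it last by probe 1 (9.12 and 9.51) and first by probe 2 (7.49 and 8.87).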
